A study of Macaca mulatta with 12 samples.

Results

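Hypoxia was compared with normoxia in flat monolayer cultures that the labels call cardiomyocytes, made from induced pluripotent stem cells of the rhesus macaque (Macaca mulatta). All 16745 genes of the expression table were examined in the 6 monolayer libraries, 3 of hypoxia and 3 of normoxia, out of 12 libraries in the series. The other 6 came from engineered heart tissue (EHT), a tissue strip cast from the same kind of cells. Every culture grew in RPMI medium with the insulin-containing B27 supplement. Hypoxia was produced in anaerobic pouches for 24 hours, and the labels add a period of 24 hours following renewal of the medium. They do not state whether RNA was taken before or after that period, or whether normoxic cultures had a medium change, so oxygen and the medium change cannot be told apart. No genotype, cell line number, animal or differentiation batch is named, and p-values therefore measure the spread between these libraries, which may be technical.

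Cells sense oxygen through prolyl hydroxylases of the EGLN family, which mark the alpha subunits of hypoxia-inducible factor (HIF) for destruction while oxygen is present. When oxygen is short, the alpha subunits HIF1A and EPAS1 are spared, pair with ARNT and switch on genes of glucose uptake, glycolysis, vessel growth, pH control and mitophagy. Heart muscle normally burns fatty acids in its mitochondria, and hypoxic heart muscle turns to glycolysis. Because HIF alpha is controlled as a protein, its mRNA need not follow its activity.

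The recovered totals were 7068098 to 11298841 reads per monolayer library, with 13075 to 14372 genes detected. Libraries of a group differed beyond counting noise, more so in normoxia (mean chi-square per gene 35.2 to 69.6 between pairs) than in hypoxia (5.52 to 9.99), and none was a repeat of another. In the deposited values, normoxia replicate 3 lay far above its group, with a median of 8.66 over the genes tested against 7.32 and 7.55 for the other normoxia libraries and 6.94 to 7.66 for hypoxia. Its deposited scaling factor was 0.412 of the median-of-ratios factor computed from its own reads. Each library was therefore centred on its median, and levels below are log2 values relative to that median unless called normalised reads, which are recovered reads divided by median-of-ratios factors. Centring added 0.56 to every log2 difference. After centring, the first principal component held 76.5% of the variance and separated hypoxia (51.0 to 59.7) from normoxia (-58.8 to -51.4). Normoxia replicate 3 still stood apart on the second component (11.0% of the variance) at -41.6, against 18.1 and 24.2 for its group.

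More than 1 gene in 2 differed. In the limma fit 6655 of 12517 genes tested passed an adjusted p of 0.05 (53.2%), here termed called, with 3855 higher in hypoxia (30.8%) and 2800 lower (22.4%). Fold changes of at least 8 were reached by 64 genes that were higher and 85 that were lower. The groups did not overlap for 61.2% of all genes tested. With so many calls, the direction of a small difference depended on how the libraries were scaled. The median difference of all genes was 0.08 after centring, -0.49 in the deposited values and -0.63 when reads were scaled to library totals. Deposited values gave 393 higher (3.14%) and 2069 lower (16.5%), and library totals gave 1360 higher (10.9%) and 6956 lower (55.6%). In the deposited values every standard error was at least 0.412, against 0.118 at the lowest after centring. The lack of a call there therefore cannot show that a small difference is absent. Abundant matrix transcripts moved with that gap. FN1, the gene of fibronectin, took 9.90 to 11.0% of the reads in hypoxia and 1.32 to 3.38% in normoxia. A gene is therefore given below as called in all 5 fits when 5 scalings called it the same way. These are median centring, quantile normalization, median-of-ratios scaling, voom and library totals. By this rule 1332 genes were higher (10.6%) and 2481 lower (19.8%). Counts of list members in all 5 fits are to be read against these shares. Counts after centring are to be read against 30.8% and 22.4%. The first 4 alone gave 2602 higher and 2481 lower, so library totals removed rises only, and the rule is stricter for rises than for falls.

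**Figure D1:**
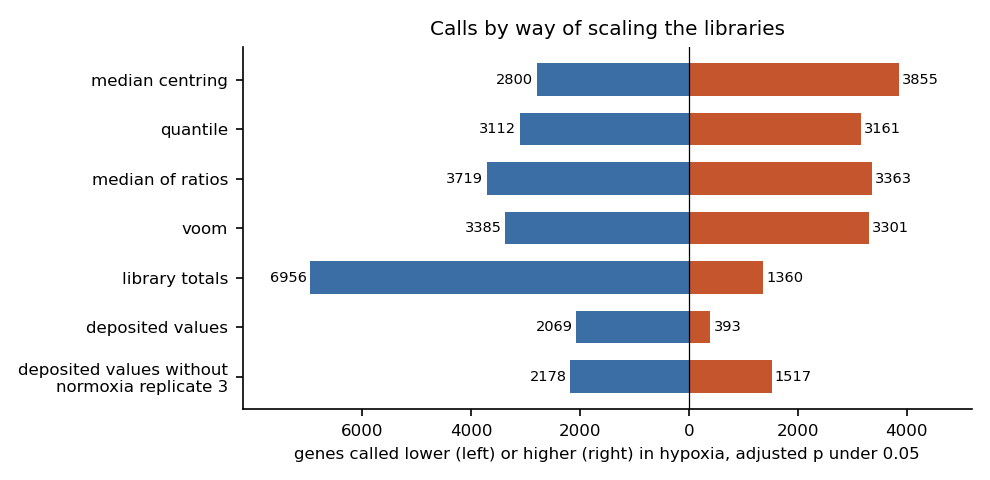
Number of genes called lower (left, blue) or higher (right, orange) in monolayer hypoxia than in normoxia, for each way of scaling the 6 libraries. Median centring gave 3855 higher and 2800 lower, whereas library totals gave 1360 and 6956 and the deposited values 393 and 2069.

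Genes of the oxygen sensor itself went opposite ways. EGLN1, the main HIF prolyl hydroxylase, had 389, 546 and 610 normalised reads in normoxia and 2651, 2820 and 2710 in hypoxia. It rose by 2.50 ± 0.17 (SE, n = 3 per group, adjusted p = 1.8e-06). EGLN3, a prolyl hydroxylase that is also a HIF target, rose by 2.25 ± 0.17, from between 202 and 332 normalised reads to between 1130 and 1187. Among the transcripts of the alpha subunits, EPAS1 and HIF1A were lower and HIF3A was not called (-0.02, adjusted p = 0.96). EPAS1, which encodes HIF-2 alpha, had levels of 1.97, 1.20 and 1.28 in normoxia and -0.01, 0.12 and 0.49 in hypoxia, and fell by 1.28 ± 0.22 (adjusted p = 5.8e-04). HIF1A fell by 0.49 ± 0.16 (adjusted p = 0.0219), a small difference that was not called without hypoxia replicate 1 or 3 or without normoxia replicate 1 (adjusted p up to 0.0850) and not in the deposited values (adjusted p = 0.194). HIF1AN, the asparaginyl hydroxylase that restrains HIF transcriptional activity, fell by 0.56 ± 0.17, and lost its call without hypoxia replicate 2. ARNT, the shared partner of the alpha subunits, was 0.98 ± 0.14 higher after centring, but library totals left 0.23 and no call. In this list of HIF subunits and hydroxylases 3 of 10 genes tested rose and 3 fell, shares near those over all genes (30.8% and 22.4%). In all 5 fits 2 rose and 3 fell, and the deposited values called 2 higher and 1 lower.

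HIF target genes outside glycolysis rose broadly. Of 40 tested, 35 were higher and 1 was lower, with a median difference of 2.60 against 0.08 for all genes, and 32 were higher in all 5 fits (27 in the deposited values). Leaving out any single library kept the count at 35. The largest difference belonged to RORA, a nuclear receptor of the clock, at 4.42. NDRG1, a stress-inducible gene of differentiation, had levels of 2.78, 4.05 and 4.39 in normoxia and 8.11, 8.31 and 7.95 in hypoxia, a difference of 4.39 ± 0.34 (adjusted p = 3.1e-06). Its lowest hypoxic library lay more than 3 log2 units above its highest normoxic one. ADM, the vasodilator peptide adrenomedullin, had 18.8, 82.6 and 29.3 normalised reads in normoxia and 941, 1131 and 760 in hypoxia (4.37 ± 0.34). CA12, a membrane carbonic anhydrase that regulates pH, rose from between 98.6 and 239 normalised reads to between 2867 and 2935 (4.26 ± 0.24). HILPDA, a lipid droplet protein that inhibits lipolysis, rose from between 136 and 239 to between 2403 and 3666 (3.89 ± 0.22). ERO1A, the oxidase of the endoplasmic reticulum that makes disulfide bonds, rose by 3.81, and MXI1, an antagonist of MYC, by 3.49.

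Several targets act on mitochondria, chromatin or growth signalling. BNIP3 and BNIP3L, receptors that tag mitochondria for autophagy, rose by 2.55 and 1.83. BNIP3 stood at 2.93, 3.84 and 4.57 in normoxia, a spread of more than 1.5 log2 units, and at 6.24, 6.46 and 6.30 in hypoxia. DDIT4, an inhibitor of mTORC1 signalling, rose by 3.26 ± 0.22, from levels between 2.48 and 3.41 to levels between 6.00 and 6.43. KDM3A, a histone H3 lysine 9 demethylase, rose by 2.80 ± 0.17. P4HA1 and PLOD2, which hydroxylate collagen, rose by 2.38 and 2.81, and the collagen cross-linking oxidases LOX and LOXL2 by 3.96 and 3.34. The groups of all these genes were fully separated, as they were for 6535 of the 6655 genes called and 61.2% of all genes tested.

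CA9 and NDUFA4L2 are commonly used as hypoxia markers. CA9, a carbonic anhydrase of the cell surface, had 75.3, 344 and 396 normalised reads in normoxia against 743, 758 and 677 in hypoxia. The difference was 1.75 ± 0.45 (adjusted p = 0.0069), and it was 1.04 without normoxia replicate 1 and 2.16 without normoxia replicate 3. It stayed called when any single library was left out, but not in the deposited values (adjusted p = 0.133) or with library totals (adjusted p = 0.078). NDUFA4L2, which lowers mitochondrial oxygen use, had 10.2, 43.1 and 67.9 normalised reads in normoxia and 53.3, 25.9 and 32.2 in hypoxia, so the groups overlapped (0.21 ± 0.40, adjusted p = 0.690). EFNA1, the ephrin ligand, was the member that fell (-1.54 ± 0.16), although it is listed among hypoxia-inducible genes. ANKRD37 had no read in any monolayer library.

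**Figure D2:**
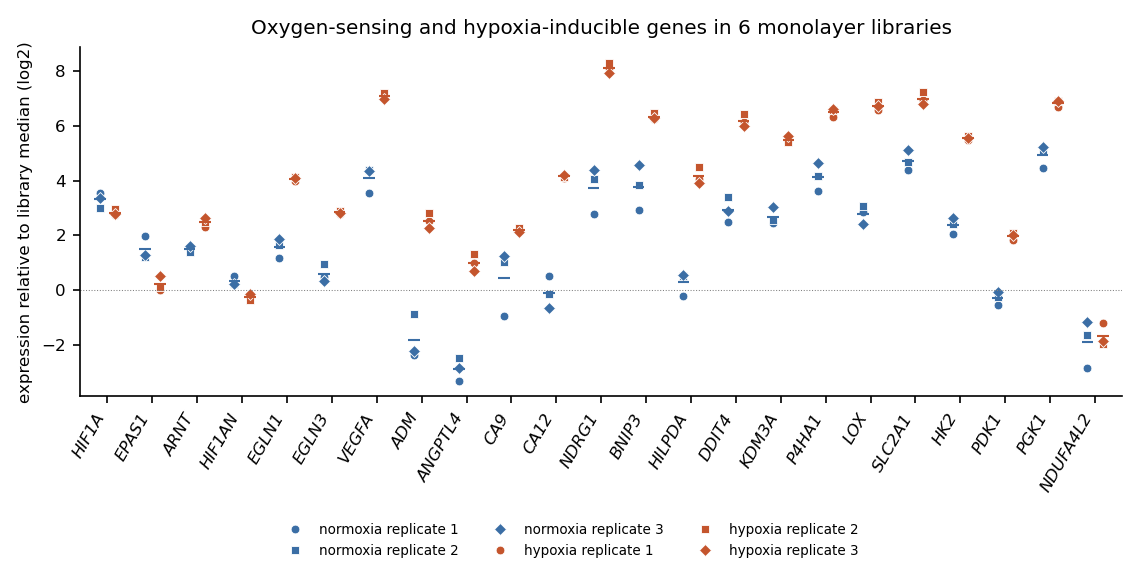
Level of 23 oxygen-sensing and hypoxia-inducible genes in each monolayer library, as log2 expression relative to the library median (blue normoxia, orange hypoxia, marker shape the replicate, bars the means). The groups are separated for nearly every gene, while NDUFA4L2 overlaps and normoxia replicate 1 has the lowest CA9 level, -0.97.

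Glucose uptake and glycolysis rose as a set. All 19 genes tested were called higher, 18 of them in all 5 fits and 13 in the deposited values, with a median difference of 2.28. The exception was the lactate exporter SLC16A3, at 1.28 after centring and uncalled with at least 1 other scaling. HK2, the inducible hexokinase, had 727, 925 and 1038 normalised reads in normoxia and 7462, 8067 and 7495 in hypoxia (3.19 ± 0.16, adjusted p = 4.9e-07). HK1, the constitutive hexokinase, rose by 2.54 and the glucose transporter SLC2A1 by 2.26 ± 0.20. PFKFB3 and PFKFB4, which make the activator of phosphofructokinase, rose by 2.85 and 2.54. PFKP, the platelet-type phosphofructokinase, rose by 2.34, the liver and muscle types PFKL and PFKM by 1.35 and 1.48, and ENO2, the neuronal enolase, by 3.11. PGK1, which makes ATP from 1,3-bisphosphoglycerate, stood at 4.47, 5.13 and 5.23 in normoxia and at 6.70, 6.90 and 6.90 in hypoxia (1.89 ± 0.21), a rise the deposited values did not call (adjusted p = 0.0833). PDK1 and PDK3, kinases that keep pyruvate out of the mitochondrion, rose by 2.28 and 2.66. Glycogen genes moved as well, with GBE1, the branching enzyme, 2.89 higher and GYS1, glycogen synthase, 2.47 higher. The listed genes took 0.702 ± 0.188% (SD, n = 3) of the reads in normoxia and 1.84 ± 0.0653% in hypoxia. SLC2A3, GAPDH, LDHA, PKM, ENO1, TPI1 and PGAM1 were not analysed here.

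Mitochondrial oxidation genes showed no comparable shift. Among 43 nuclear-encoded respiratory chain genes tested the median difference was 0.22, and 18 were called higher and 1 lower after centring. With library totals 1 was higher and 27 were lower, so the direction of the set rested on the scaling. The deposited values called 0 in either direction (0 of 43, limma). Their standard errors were at least 0.412, so a difference near that median could not be called there. COX5A, a subunit of cytochrome c oxidase, was higher in all 5 fits (1.28 ± 0.13), with 245, 217 and 229 normalised reads in normoxia against 527, 574 and 505. NDUFB6, a complex I subunit, was lower in all 5 (-0.44 ± 0.15), but lost its call when any of 3 single libraries was left out. Most fatty acid oxidation genes were not called (15 of 23). CPT2, the inner-membrane carnitine palmitoyltransferase, fell by 1.40 ± 0.19, from between 109 and 125 normalised reads to between 27.3 and 35.2. PPARGC1A, the coactivator that promotes mitochondrial biogenesis, rose by 2.25 ± 0.20, from between 22.4 and 38.0 to between 158 and 200. In that list 6 of 23 were higher and 2 lower, and 2 and 1 in all 5 fits, shares below those over all genes (30.8% and 22.4%).

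Among angiogenic factors and receptors, 10 of 26 rose and 6 fell, against 30.8% and 22.4% over all genes, with a list median of -0.02. In all 5 fits 7 of them rose and 5 fell. VEGFA, the main vessel growth factor, had 2099, 3760 and 3451 normalised reads in normoxia and 22469, 23742 and 20514 in hypoxia, and rose by 2.98 ± 0.22 (adjusted p = 2.6e-06). ANGPTL4, which inhibits lipoprotein lipase, rose from 4.58, 18.0 and 17.2 normalised reads to 310, 388 and 244 (3.88 ± 0.25). FGF2 rose by 1.53 and VEGFB by 1.36. The receptor KDR rose by 1.23 and CALCRL, the receptor for adrenomedullin, by 1.55. Going the other way, EDN1, which encodes the vasoconstrictor endothelin-1, fell by 2.73 ± 0.32, from 168, 190 and 334 normalised reads to 22.3, 26.8 and 10.05. TEK, the angiopoietin receptor, fell by 2.23, its ligand ANGPT1 by 0.88, and PDGFA by 1.78.

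Among all genes, the 12 largest rises were led by NPPA, the gene of atrial natriuretic peptide, at 5.36 ± 0.61. Its normalised reads were 16.3, 50.8 and 1.43 in normoxia and 776, 991 and 896 in hypoxia. Without normoxia replicate 3, where NPPA was lowest, its difference was 4.44 and no longer the largest, as NDRG1 stood at 4.71. With all 6 libraries SNCB, the synaptic protein beta-synuclein, came second at 4.75, with 4.07, 15.9 and 7.86 normalised reads against 431, 476 and 481. The others not yet named were NR1D1 (4.71), the chemokine CCL21 (4.41), the neurite growth gene NRN1 (4.21), the stress transcription factor DDIT3 (4.05) and the muscle ubiquitin ligase FBXO32. FBXO32 had 99.7, 108 and 172 normalised reads in normoxia and 1945, 2416 and 1766 in hypoxia. RORA, NDRG1, ADM, CA12 and LOX completed the group, and all 12 were higher in all 5 fits. The 12 largest falls included several genes of surface epithelium. GABRP, a GABA-A receptor subunit, had 5332, 3203 and 2065 normalised reads in normoxia and 14.9, 26.8 and 10.05 in hypoxia (-6.64 ± 0.31, adjusted p = 4.9e-07). Others were the keratins KRT5 (-6.04), KRT15 (-5.35) and KRT4 (-5.27), the immune checkpoint ligand VTCN1 (-4.80), the hemidesmosome collagen COL17A1 (-4.78) and TP63 (-4.77), the transcription factor of basal epithelium. GRHL2, which keeps the epithelial state, the tight junction gene CLDN6 and WNT6 differed by -4.74, -4.69 and -4.65. PROM2, a prominin of epithelial cells, had 275, 260 and 214 normalised reads in normoxia and 1.24, 1.79 and 0 in hypoxia. In bulk RNA, fewer cells of a type and less RNA per cell cannot be told apart. The transformation flattens low values, so a log2 difference is smaller than the change in reads where reads are few.

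The circadian clock list moved almost as fully as the hypoxia list. Of 18 tested 15 rose and 1 fell, 14 and 1 in all 5 fits, with a median of 1.73, whereas the deposited values called 7 and 2. NR1D1, the clock repressor REV-ERB alpha, had 22.9, 40.6 and 20.7 normalised reads in normoxia and 899, 1105 and 786 in hypoxia (4.71 ± 0.23). RORA, which competes with it for the same sites, rose by 4.42. BHLHE40 and BHLHE41, repressors that are also HIF targets, rose by 2.86 and 2.59. The output factors DBP, NFIL3 and TEF rose by 2.55, 2.39 and 1.73, and the period genes PER1 and PER2 by 1.74 and 1.70. CRY1, the core repressor, fell by 1.28 ± 0.17, and its paralogue CRY2 rose by 1.27. ARNTL, which drives the clock with CLOCK, differed by 0.73 ± 0.42 and was not called (adjusted p = 0.171). RORA and BHLHE40 also stand in the hypoxia list, so the lists are not separate evidence.

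Genes of stress arrest rose. Among p53 targets 16 of 23 were higher and 1 lower, 12 and 1 in all 5 fits, with a median of 1.29. Over all genes 30.8% were higher and 22.4% lower, and 10.6% and 19.8% in all 5 fits. MDM2, which degrades p53, had 262, 142 and 154 normalised reads in normoxia and 1235, 1352 and 1340 in hypoxia (2.89 ± 0.20). GDF15, a stress cytokine, rose by 3.27, and the cell cycle inhibitor CDKN1A by 2.12. RRM2B, a ribonucleotide reductase subunit for DNA repair, rose by 2.66, the death receptor TNFRSF10B by 2.30 and ZMAT3 by 2.40. XPC, which finds damaged DNA, fell by 0.83. Deposited values called 7 of these as higher and 0 as lower.

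In the unfolded protein and integrated stress response 20 of 28 were higher and 2 lower after centring, and 7 and 2 in all 5 fits. For this list and those that follow, 30.8% of all genes were higher and 22.4% lower. In all 5 fits these shares were 10.6% and 19.8%. DDIT3, the factor CHOP, stood apart, with 187, 291 and 328 normalised reads in normoxia and 4247, 4871 and 3697 in hypoxia (4.05 ± 0.20). PPP1R15A, which restores translation, rose by 2.66, the chaperone partner DNAJB9 by 2.16 and the amino acid transporter chain SLC3A2 by 1.99. HSPA5, the main chaperone of the endoplasmic reticulum, and ATF4 were 1.20 and 1.39 higher after centring without a call in all 5 fits. CRELD2 fell by 1.06. Autophagy and lysosome genes rose in 14 of 21 and fell in 1, 9 and 1 in all 5 fits. SQSTM1, the cargo receptor p62, had 984, 792 and 755 normalised reads in normoxia and 6913, 7482 and 6364 in hypoxia (3.13 ± 0.14). OPTN rose by 2.60 and MAP1LC3B, which coats autophagosomes, by 2.47, while ULK1, the starting kinase, fell by 1.66 ± 0.17. Of cell death regulators 10 of 19 rose and 4 fell, and 4 and 4 in all 5 fits. Inhibitors of death BCL2L1 and BIRC3 rose by 1.52 and 1.59, but so did BNIP3L, by 1.83. The initiator caspase CASP9 fell by 1.16 and BMF by 0.89. Whether cell death changed was not tested.

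Other stress lists were mixed, to be read against 30.8% higher and 22.4% lower over all genes. Antioxidant genes driven by NRF2 were higher in 12 of 25 and lower in 3, but 4 and 3 in all 5 fits. HMOX1, haem oxygenase, rose by 2.47 ± 0.17, from between 62.1 and 95.5 normalised reads to between 415 and 513. OSGIN1 rose by 2.28, and catalase (CAT) and the pentose phosphate enzyme PGD fell by 0.92 and 0.82. Heat shock genes were higher in 8 of 18 and lower in 4, 3 and 4 in all 5 fits, with HSPA4L at 2.30 and HSPA1B at -1.59. In the NF-kB and cytokine list 10 of 23 rose and 2 fell, 7 and 2 in all 5 fits. PTGS2, the inducible cyclooxygenase, rose by 2.26, the feedback inhibitor TNFAIP3 by 2.22, and NFKBIZ fell by 1.73. Of 24 immediate early genes 10 were lower, 5 higher and 9 not called, 9 and 4 in all 5 fits, and without normoxia replicate 3 9 were lower and 7 higher. EGR1 had 1710, 1091 and 10796 normalised reads in normoxia and 162, 221 and 220 in hypoxia. Its difference was -3.56 ± 0.64, and -2.54 without normoxia replicate 3, the library in which it was highest. The same library held 0.734% of its reads in this list against 0.251% and 0.233% in the other normoxia libraries.

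Proliferation genes fell. In the list of DNA replication and S phase 24 of 31 were lower and 1 higher, 23 and 0 in all 5 fits and in the deposited values, with a median of -1.35. MCM3, part of the replicative helicase, had 722, 524 and 935 normalised reads in normoxia and 49.6, 55.4 and 50.2 in hypoxia (-3.31 ± 0.21, adjusted p = 1.2e-06). MCM5 and MCM7 of the same helicase fell by 2.79 and 1.93, CDC45 and CDC6, which load and start it, by 2.63 and 2.51, and the chromatin assembly gene CHAF1A by 1.73. PCNA, the polymerase clamp, differed by 0.26 and was not called, and TYMS was 1.01 higher after centring but not in all 5 fits. In the mitosis list 26 of 32 were lower and 0 higher, 25 in all 5 fits, with a smaller median of -0.71. KIF23, needed for cytokinesis, fell by 1.73 ± 0.18, the checkpoint kinase BUB1B by 1.57 and DLGAP5 by 1.41. CCNB1 and PLK1 differed by -0.25 and 0.32 and were not called. The mitosis calls were fewer when the spread was taken over all 12 libraries (8 lower) and in the deposited values (10 lower).

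Sterol synthesis genes fell with them. In the cholesterol list 17 of 23 were lower and 2 higher, 17 and 1 in all 5 fits, 14 and 1 in the deposited values, with a median of -1.04. FDPS, farnesyl diphosphate synthase, had 1265, 1190 and 1178 normalised reads in normoxia and 315, 296 and 256 in hypoxia (-1.90 ± 0.13). IDI1, which acts just before it in the pathway, fell by 1.90, and HMGCS1, an early synthase, by 1.43. The transcription factor genes SREBF1 and SREBF2 differed by -0.10 and 0.01 and were not called. SC5D, a late desaturase of the pathway, was the member higher in all 5 fits, with 490, 433 and 514 normalised reads in normoxia against 2408, 2697 and 2274 (2.43 ± 0.14). INSIG2, an inhibitor of SREBP processing, rose by 2.14, but it was counted in the hypoxia list and not in the cholesterol list.

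**Figure D3:**
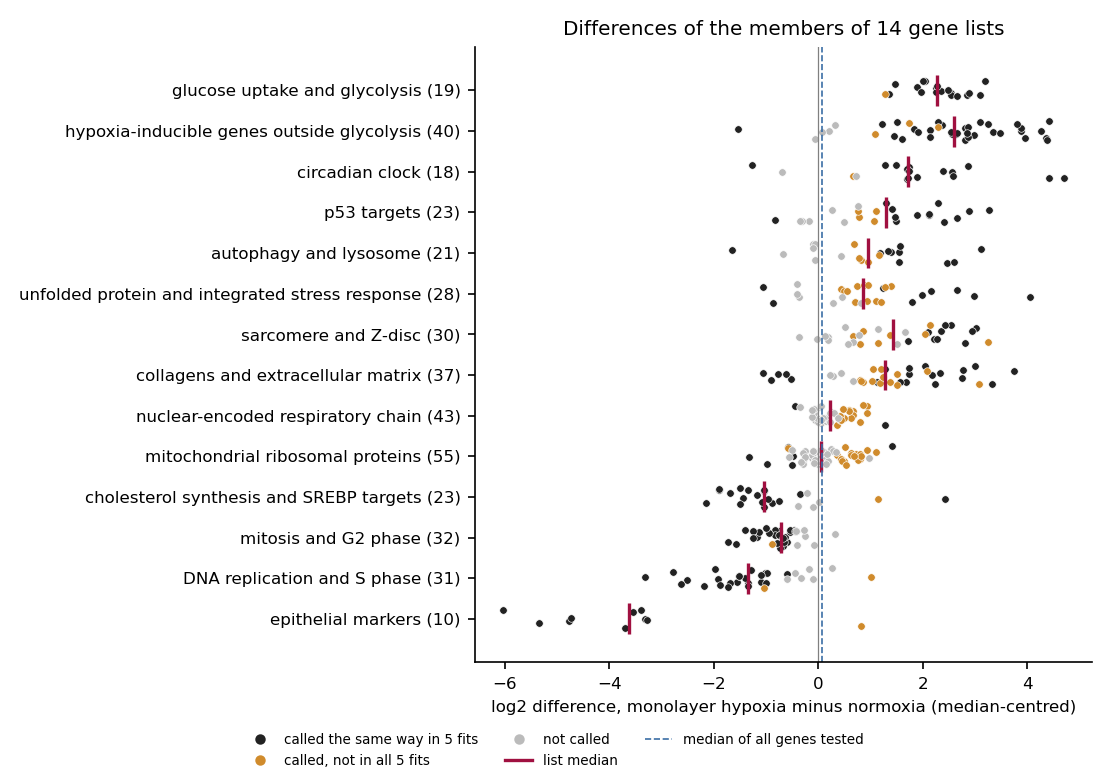
Log2 difference between monolayer hypoxia and normoxia for each tested member of 14 gene lists (points, with the number tested in brackets), their medians (red) and the median of all genes tested (dashed). Glycolysis, hypoxia and clock members lie almost wholly to the right, replication, sterol and epithelial members to the left, and the respiratory chain straddles 0.

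Cardiac genes were higher in hypoxia, and normoxia replicate 3 was low in them. TNNT2, cardiac troponin T, had 2267, 2825 and 357 normalised reads in normoxia and 10559, 10028 and 9781 in hypoxia. It rose by 3.03 ± 0.57 (adjusted p = 0.00105), and by 2.12 without normoxia replicate 3. ACTC1, cardiac alpha-actin, stood at 4.18, 4.42 and 0.07 in normoxia and between 5.98 and 6.27 in hypoxia, a difference of 3.25 ± 0.87 and of 1.84 without that library. The hypoxia libraries lay above all normoxia libraries for both genes. MYH6, the alpha heavy chain of myosin, differed by 2.04 ± 0.48 and by 1.29 without replicate 3. MYL7, the atrial myosin light chain, rose by 2.54 and ACTN2, the Z-disc protein alpha-actinin, by 2.81. In the sarcomere and Z-disc list 18 of 30 were higher and 0 lower, 10 in all 5 fits and 12 in the deposited values. Without normoxia replicate 3, 17 were higher and 1 was lower. With the spread taken over all 12 libraries 9 were higher, and MYH6, MYL7 and ACTC1 were not called (adjusted p = 0.330, 0.193 and 0.0921). TNNI3, MYBPC3, ACTA1 and ANKRD1 were not called (0.52, 1.66, -0.36 and 0.18).

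Some calcium and rhythm genes were called. RYR2, the calcium release channel, rose by 1.59 ± 0.28, ATP2A2, the reuptake pump, by 1.38 ± 0.19, and SLN, a small inhibitor of that pump, by 2.67. PLN, the other pump inhibitor, stood at -0.77, -0.11 and -4.73 in normoxia and 0.72, 1.03 and 1.14 in hypoxia. Its difference of 2.84 ± 0.89 became 1.41 without normoxia replicate 3, where it had 1.43 normalised reads, and lost its call without hypoxia replicate 2 or 3. The calcium list had 8 of 19 higher and 1 lower, against 30.8% and 22.4% over all genes. In all 5 fits 4 were higher and 0 lower, against 10.6% and 19.8%. The gap junction gene GJA1 rose by 1.10, the pacemaker channel HCN2 by 2.19, and KCND2, a channel of early repolarization, fell by 1.23. In the channel list 5 of 23 were higher and 3 lower, 3 and 3 in all 5 fits, a smaller share than the 53.2% called over all genes. Of 25 cardiac transcription factors 9 were higher and 6 lower, shares near those over all genes (30.8% and 22.4%). In all 5 fits 5 were higher and 6 lower, against 10.6% and 19.8% over all genes. NKX2-5 rose by 2.48 ± 0.56 (1.64 without normoxia replicate 3), GATA4 by 1.96 and MEF2D by 1.45. HAND1 fell by 2.31. NPR1, the receptor of atrial natriuretic peptide, had 11.2, 24.1 and 18.6 normalised reads in normoxia and 0, 1.79 and 0 in hypoxia, opposite to NPPA. MYH7, TTN and NPPB were not analysed here.

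The cardiomyocyte label was checked against markers. All 10 cardiomyocyte markers tested were detected, and together they took 0.233%, 0.324% and 0.0421% of the reads in the normoxia libraries and 0.523%, 0.502% and 0.555% in hypoxia. Of these 8 rose and 0 fell, 6 in all 5 fits. Fibroblast markers took a larger share, 3.35 to 7.06% in normoxia, highest in replicate 3, and 4.45 to 4.97% in hypoxia. These shares are not corrected for transcript length. Their part in the differences of the sarcomere genes was not tested.

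**Figure D4:**
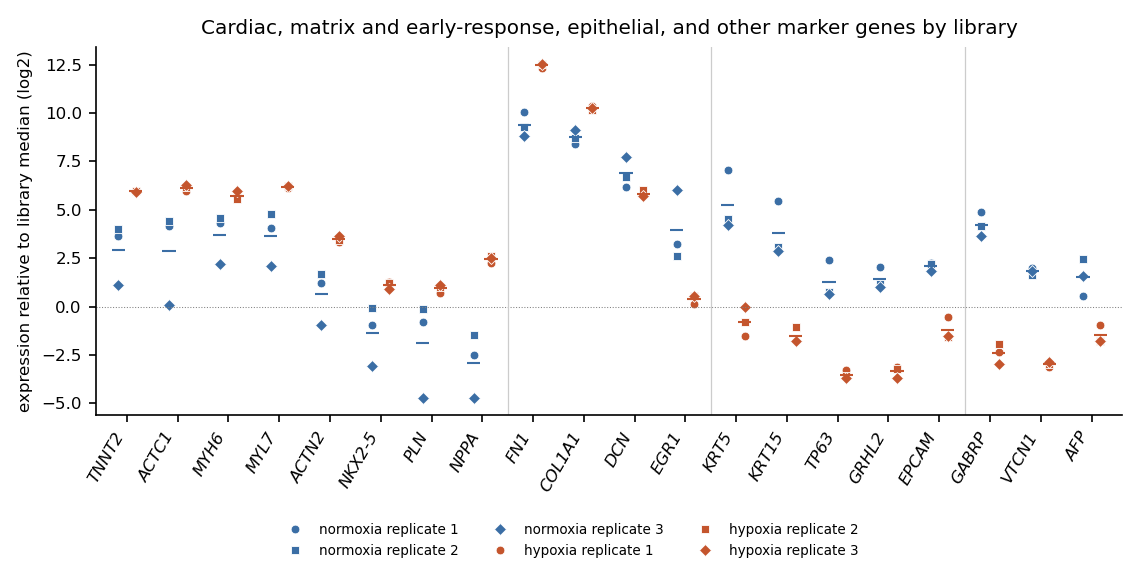
Levels in each monolayer library (log2 relative to the library median, blue normoxia, orange hypoxia, marker shape the replicate, bars the means) of cardiac genes, of matrix and early-response genes, of epithelial genes, and of amnion-like and endoderm markers. Normoxia replicate 3 (blue diamonds) is lowest for the cardiac genes, with TNNT2 at 1.11, and highest for EGR1, while normoxia replicate 1 (blue circles) is highest for KRT5 at 7.07.

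Matrix genes rose and took more of the reads. The list of collagens and extracellular matrix held 11.2 ± 0.655% (SD, n = 3) of the reads in normoxia and 22.5 ± 0.245% in hypoxia. FN1 alone took at most 3.38% in normoxia and 9.90 to 11.0% in hypoxia, so these shares do not describe the members evenly. In it 28 of 37 were higher and 5 lower, 15 and 5 in all 5 fits, with a median of 1.27, and the deposited values called 11 and 1. FN1 stood at 10.07, 9.29 and 8.79 in normoxia and 12.33, 12.51 and 12.55 in hypoxia (3.08 ± 0.43). Quantile normalization, which gives every library the same highest values, left 1.16 for it and no call (adjusted p = 0.0817). Basement membrane genes were among the largest rises, with the nidogen NID1 at 3.75, COL4A1 and COL4A2 at 2.75 and 2.17 and the laminin chain LAMA4 at 2.24, all in all 5 fits. NID2, the other nidogen, fell by 0.91. The proteoglycan BGN rose by 3.33, TNC by 3.00 and the fibril-associated COL12A1 by 2.77. COL1A1, the main fibrillar collagen, was 1.51 ± 0.30 higher after centring but 0.13 with quantile normalization, and COL3A1 differed by 0.28 and was not called. DCN, a small proteoglycan, fell by 1.05, by 0.62 without normoxia replicate 3, and lost its call without hypoxia replicate 1 or 3.

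Enzymes and signals of the matrix followed. In the protease list 11 of 25 rose and 5 fell, 9 and 5 in all 5 fits, against 30.8% higher and 22.4% lower over all genes after centring. The inhibitors TIMP1, TIMP2 and TIMP3 rose by 2.23, 1.93 and 2.16, and the collagen-processing ADAMTS2 by 3.19. ADAMTS1, which cleaves proteoglycans, had 652, 978 and 1932 normalised reads in normoxia and 84.3, 94.7 and 113 in hypoxia (-3.16 ± 0.32). ADAMTS4, ADAMTS5 and ADAMTS9 of the same family fell by 1.71, 1.72 and 1.11. Among TGF-beta genes 15 of 28 were higher and 3 lower, 6 and 3 in all 5 fits. TGFB1 rose by 2.84, the activin subunit INHBA by 3.02 and LTBP2, a latent TGF-beta binding protein, by 3.73. BMP4 fell by 2.11 and follistatin (FST) by 1.29.

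Markers of other cell types moved as well. Of 10 epithelial markers 9 fell and 1 was higher after centring, and the 9 fell in all 5 fits and in the deposited values. KRT5 had levels of 7.07, 4.53 and 4.19 in normoxia and -1.50, -0.79 and -0.03 in hypoxia, and EPCAM 2.27, 2.18 and 1.85 against -0.55, -1.56 and -1.54. The list took 0.922%, 0.234% and 0.186% of the reads in normoxia and 0.0105 to 0.0128% in hypoxia. KRT18, a keratin of simple epithelium, was the member that was higher (0.82), and it lost its call without hypoxia replicate 2. Amnion-like markers fell in 6 of 9, namely GABRP, VTCN1, TFAP2C, HAND1, GATA3 and TFAP2A, while KRT7 rose by 2.29 and IGFBP5 was 1.14 higher, the latter not in all 5 fits. The amnion-like list took 0.232 ± 0.0514% (SD, n = 3) of the reads in normoxia and 0.208 ± 0.0105% in hypoxia. Mesothelial genes UPK1B and BNC1 fell by 3.64 and 3.40, whereas ALDH1A2, which makes retinoic acid, rose by 2.02. All 3 pluripotency markers tested fell, with DNMT3B at -1.92 and SOX2 at -1.91, and ZFP42 (-1.28) lost its call without normoxia replicate 2. POU5F1, LIN28A and PRDM14 had no read in any monolayer library, and the list took a mean of 0.00308% of the reads in normoxia. Of 7 endoderm markers 6 fell, with AFP at -3.03. The smooth muscle genes MYH11 and TAGLN rose by 2.73 and 2.06. Among fibroblast markers FAP, DDR2 and THY1 rose in all 5 fits by 3.06, 2.02 and 1.20, and TCF21, DCN and LUM fell. LUM (-0.78) had overlapping groups and lost its call without hypoxia replicate 1 or 3 (adjusted p up to 0.084). Of 7 endothelial markers 1 rose and 1 fell, against 30.8% and 22.4% over all genes. The neural list had 2 of 6 higher (0 in all 5 fits) and the macrophage list 1 of 7 lower (0 in all 5 fits).

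Housekeeping lists depended on scaling. Cytosolic ribosomal protein genes were higher in 20 of 26 after centring, and 0 were called in all 5 fits. How reads shared with near-identical gene copies were counted is not stated, so these values are uncertain. Mitochondrial ribosomal protein genes were higher in 18 of 55 and lower in 7, against 30.8% and 22.4% over all genes. In all 5 fits 1 was higher and 6 were lower, with MRPS28 at -1.34 and MRPS30 at 1.42. For the proteasome 5 of 28 were higher and 9 lower, 0 and 9 in all 5 fits, PSMB2 (-1.08) and PSMB3 (-0.94) among the 9. Over all genes 10.6% were higher and 19.8% lower in all 5 fits. Of 29 HOX genes 10 were higher and 8 lower, shares near those over all genes (30.8% and 22.4%). In all 5 fits 6 were higher and 6 lower, against 10.6% and 19.8% over all genes. HOXA6 and HOXA11 rose by 2.26 and 2.17, and HOXD3 and HOXB4 fell by 2.02 and 1.69.

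The response was set beside that of EHT for 17 oxygen-sensing and hypoxia genes, in a fit to all 12 libraries (12084 genes) whose interaction term tests the difference between the responses. Over all genes 2956 were called for that term (24.5%), 1248 with a positive value (EHT minus monolayer) and 1708 with a negative one. A negative value can mean a smaller rise or a larger fall in EHT. Of the 17 genes 7 were called, and in all 7 the difference was larger in EHT than in monolayer. CA9 differed between hypoxia and normoxia by 6.68 in EHT and 1.73 in monolayer, and NDUFA4L2 by 4.91 and 0.20. EGLN3 differed by 5.06 and 2.24, SLC2A1 by 3.88 and 2.25, BNIP3 by 4.02 and 2.54, NDRG1 by 5.75 and 4.37 and HILPDA by 5.004 and 3.87. For VEGFA (3.32 and 2.96), EGLN1 (2.73 and 2.49), KDM3A (3.13 and 2.79), PDK1 (2.60 and 2.26) and DDIT4 (3.65 and 3.24) the interaction was not called. It was not called for ADM either, the gene with the largest negative estimate of the 17 (-1.05 ± 0.45, adjusted p = 0.108). In HIF1A the interaction of -0.75 missed the threshold (adjusted p = 0.0754) and passed it without EHT hypoxia replicate 3 (-0.95, adjusted p = 0.0128) or EHT normoxia replicate 3 (-0.94, adjusted p = 0.0294).

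**Figure D5:**
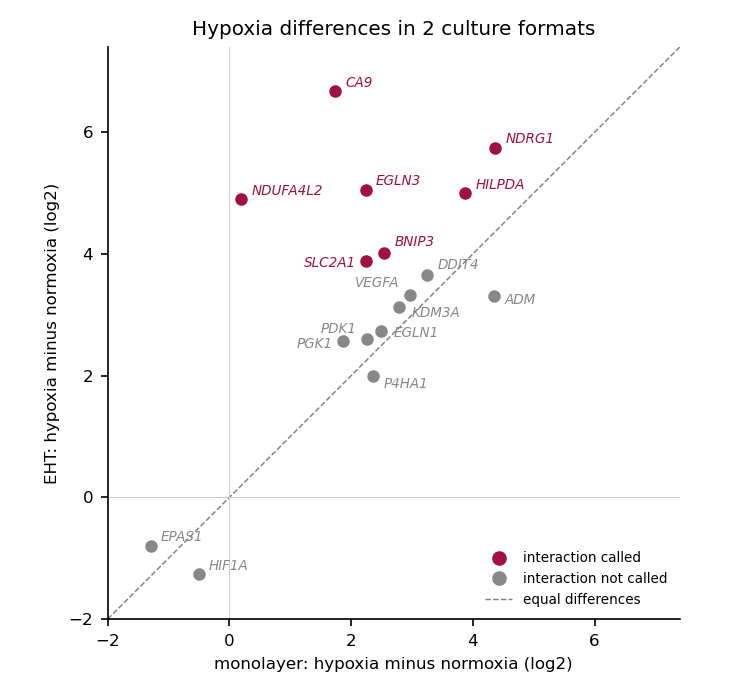
Log2 difference between hypoxia and normoxia in EHT (vertical) against monolayer (horizontal) for 17 genes in the fit to all 12 libraries, with the line of equal differences dashed. CA9, NDUFA4L2, EGLN3, SLC2A1, BNIP3, NDRG1 and HILPDA, for which the interaction was called (red), lie above the line.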

How the data were processed

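Gene expression of the 6 monolayer libraries was read from a table of 16745 genes by 12 libraries of macaque cells. The authors deposited variance-stabilised log2 values made with DESeq2 from HISAT2 alignments and featureCounts counts, per the submitters' processing notes. RNA came from RNeasy kits and was sequenced on the Ion Proton, per the labels' protocols. No label or header names tool versions, a genome build or a strand setting, and no coordinates are printed. Inverting the transformation gave whole reads (within 0.01) for 100% of values.

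Each library was centred on its median over genes with a monolayer mean exceeding the table's lowest value (3.00) by 1 log2 unit or more. A trended limma 3.58.1 fit (R 4.3.3) with 1 mean per group gave differences, standard errors (0.118 to 0.928) and Benjamini-Hochberg adjusted p-values over 12517 genes, with 4 residual degrees of freedom. The fit was tested on simulated data with 200 genes changed at a dispersion of 0.05. After centring it recovered 32.8% of 2-fold and 94.0% of 4-fold changes, and 2.03% of calls were false. On the deposited scale it recovered 0% and 32.8%. Far fewer genes changed in the simulation than were called in the data, so it cannot check centring in that setting. Quantile normalization, median-of-ratios scaling, voom (on median-of-ratios library sizes), filters, the variance trend, all 12 libraries, a replicate block and leaving out each library were alternatives. Library totals and deposited values without normoxia replicate 3 were added after seeing the data. Named genes are the 12 largest called and non-overlapping differences per direction with a mean that exceeds that lowest value by 2 or more, up to 3 called members per list and direction with the smallest p, and a fixed panel. Other list members are given as further examples chosen after their values were seen. The comparison and the 41 lists were chosen with earlier results of these data known. Lists share members, and some genes of the lists are not reported here by name. Figures were drawn with matplotlib 3.10.9.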

Additional observations from a re-analysis of the deposited data

Results flagged for a closer look

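The hypoxia response differed between EHT and monolayer, by the interaction term of the limma fit to all 12 libraries, for 7 of 17 oxygen-sensing and hypoxia genes. The excess of the EHT response over the monolayer response was 4.95 ± 0.66 (SE, adjusted p = 3.6e-04) on the log2 scale for CA9 and 4.71 ± 0.86 (adjusted p = 0.00218) for NDUFA4L2. It was 2.82 ± 0.64 (adjusted p = 0.00720) for EGLN3 and 1.64 ± 0.25 (adjusted p = 8.5e-04) for SLC2A1. Smaller excesses were found for BNIP3 (1.48 ± 0.43, adjusted p = 0.0243), NDRG1 (1.38 ± 0.45, adjusted p = 0.0423) and HILPDA (1.13 ± 0.34, adjusted p = 0.0288). In the deposited values the call for HILPDA was lost (1.83, adjusted p = 0.0592).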

How the results depend on the processing

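Of 214 named genes called after centring, 19 lost the call when some single monolayer library was left out. The number of genes called ran from 5355 to 6719 over those omissions. A fit with the replicate number as a replicate block called 6529 genes, 3794 higher and 2735 lower. Deviations of same-numbered libraries correlated at 0.0076, 0.0427 and 0.138. Hypoxia replicate 1 correlated best with normoxia replicate 2 (0.207), while hypoxia replicates 2 and 3 correlated best with their own numbers. Correlations this weak cannot decide whether the numbers pair the libraries, and the block is not used elsewhere.

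Scaling moved the counts most. Deposited values called 2462 genes, 393 of them higher, and without normoxia replicate 3 they called 3695, with 1517 higher. Library totals called 1360 higher and 6956 lower. For the interaction, centred values called 1248 genes with a positive and 1708 with a negative term (EHT minus monolayer). The deposited values called 1249 genes, 1147 positive and 102 negative, so the majority sign turned over, and leaving out single libraries gave 2096 to 4076. The cause was not tested.

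Signs changed in a few named genes. NDUFA4L2 stood at -0.35 in the deposited values, at -0.40 with library totals and between -0.27 and 0.57 when a library was left out. RPL7 and RPS4Y2 stood at -0.33 and -0.33 after quantile normalization. PSMD4 stood at -0.068 in the deposited values, -0.041 after quantile normalization and -0.25 with library totals. PSMB5 stood at -0.051 and -0.24 and MAP2 at -0.12 and -0.29 in the deposited values and with library totals, and PSMB7 at -0.043 with library totals. The interaction of P4HA1 was 0.34 in the deposited values. For PDK1, EHT minus monolayer response ran from -0.00434 to 0.726 over single omissions. With 3 libraries a group, and reads that are not independent molecules, differences of the smallest size cannot be shown for genes with few reads.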

Other observations

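Gene families were also counted, chosen after their values were seen. Some of their members stand in the lists above, so they are not separate evidence. Over all genes 30.8% were higher and 22.4% lower after centring, and 10.6% and 19.8% in all 5 fits. Claudins, the seal proteins of tight junctions, fell in 7 of 12 tested, all 7 in all 5 fits, with CLDN8 at -4.08 and CLDN7 at -3.28. Wnt ligands fell in 8 of 16, again all 8 in all 5 fits, with WNT9B at -3.70, WNT3 at -3.25, WNT10A at -2.98 and WNT7B at -2.83, and WNT5A and WNT9A were 0.89 and 1.17 higher after centring but not in all 5 fits. Integrin subunits divided. ITGB6, ITGA6 and ITGA3, partners in epithelial adhesion, fell by 3.46, 3.25 and 1.32, while ITGA11, a collagen receptor of mesenchymal cells, ITGA4 and ITGA1 rose by 3.06, 2.50 and 1.51. Laminin chains divided too, with LAMB4 at -2.02 and LAMA4 and LAMB1 at 2.24 and 1.56. Semaphorins fell in 8 of 19, led by SEMA3F (-1.97), and rose in 2, SEMA4B (2.06) and SEMA7A (1.86).

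Histone lysine demethylases, enzymes that use oxygen as a substrate, were higher in 8 of 15 and lower in 1. Over all genes 30.8% were higher and 22.4% lower, and 10.6% and 19.8% in all 5 fits. Those higher in all 5 fits were KDM3A (2.80), KDM7A (1.85), KDM4B (1.21) and KDM5B (1.09), and KDM4A was lower (-0.72). Subunits of the vacuolar proton pump, which acidifies lysosomes, were higher in 11 of 16 and lower in 1, 4 and 1 in all 5 fits, with ATP6V1H at 2.07 and ATP6V1C1 at 1.78. Insulin-like growth factor binding proteins were higher in 5 of 6, with IGFBP7 (2.66) and IGFBP6 (1.57) in all 5 fits, while IGFBP4 fell by 0.55.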
